A study of Mus musculus with 24 samples.

Results

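Ribosome biogenesis factors are the nucleolar proteins that transcribe, modify, cut and assemble ribosomal RNA, and 38 of 39 such genes on a list chosen by name, out of 18193 genes measured, are described here in mouse B-cell lymphomas treated with Adriamycin (ADR, the DNA-damaging drug doxorubicin). A gene was included where a probe set on the array names it alone, and where several did, the one with the highest mean over the 24 arrays stood for it. Mrto4 had none and is only named. The list was chosen with earlier results of these data known, so shares set beside those of all genes are a description. The samples were 12 primary lymphomas from lymph nodes of Eμ-Myc transgenic mice, each profiled untreated and after 5 days of ADR at 0.05 µg/ml in culture, so 12 arrays made up each group and 12 pairs joined them. Both groups shared the transgene, which expresses Myc in the B lineage, and a retroviral Bcl2 with puromycin selection, which protects from apoptosis. They also shared a feeder layer of NIH 3T3 mouse fibroblasts irradiated with 20 Gy. The sample labels give a day only for the ADR arrays. They do not say whether the untreated cells spent the same time on the feeder layer. Per the series' design text, the lymphomas resemble human Burkitt lymphoma, and these cells become senescent after DNA damage. The comparison is between ADR and untreated arrays of the same lymphoma, and the sources used here give no age for the mice.

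A ribosome begins in the nucleolus, where RNA polymerase I copies ribosomal DNA into a long precursor RNA. Small nucleolar RNA-protein particles (snoRNPs) modify that RNA, processing factors cut it, and assembly factors join it to ribosomal proteins as the small and large subunits. Myc, the driver of these lymphomas, is known as a transcription factor that binds the E-box CACGTG and raises many genes of this pathway.

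CACGTG, which reads the same on both strands, was searched in RefSeq promoter windows of GRCm38.p6, from 250 bases before to 50 after each start. Windows were given for 33 of the 39 listed genes. Of their 40 windows 6 held the motif (15%), against 7.15% of 32851 windows of all genes. Nop2, Utp18 and Rrn3 held it before the start, and Utp20, Pes1 and Wdr43 after it. Among the 8 factors with a window and a called change after ADR (described below), 1 held the motif, Rrn3, which rose. A relation between the motif and the changes was not tested. The 250 bases before the start of the first 3 are shown because they contain every match upstream of a start; Rrn3 met the rule for printing, and Nop2 and Utp18 were added after values were seen. The capitals mark the motif, of which Rrn3 holds 2, and a match describes the letters only. The windows are Rrn3 chr16:13780449-13780698 on the plus strand, Nop2 chr6:125131633-125131882 on the plus strand and Utp18 chr11:93885767-93886016 on the minus strand.
Rrn3: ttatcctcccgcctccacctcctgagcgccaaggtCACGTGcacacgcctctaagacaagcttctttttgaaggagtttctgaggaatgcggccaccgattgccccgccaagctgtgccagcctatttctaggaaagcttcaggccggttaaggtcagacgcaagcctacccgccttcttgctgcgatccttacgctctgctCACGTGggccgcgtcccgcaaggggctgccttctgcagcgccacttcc
Nop2: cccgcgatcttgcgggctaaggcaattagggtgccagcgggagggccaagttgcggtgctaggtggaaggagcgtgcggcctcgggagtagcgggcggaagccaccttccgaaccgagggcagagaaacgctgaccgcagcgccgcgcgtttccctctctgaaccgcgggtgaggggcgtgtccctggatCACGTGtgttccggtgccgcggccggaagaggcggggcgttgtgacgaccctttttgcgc
Utp18: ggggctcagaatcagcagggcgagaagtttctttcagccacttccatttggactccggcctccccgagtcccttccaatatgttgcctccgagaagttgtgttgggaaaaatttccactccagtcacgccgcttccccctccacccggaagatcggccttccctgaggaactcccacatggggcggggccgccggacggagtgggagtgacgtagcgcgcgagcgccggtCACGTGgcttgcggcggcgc

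After ADR, 10 of the 38 factors fell and 1, Rrn3, rose. Values are log2 expression, changes are ADR minus untreated, and calls were made at an adjusted p under 0.05 in a paired limma fit over all 18193 genes. The falls came to 26.3% of the factors, beside 12.8% of all genes called lower, and the rise to 2.63%, beside 13.7% of all genes called higher. The other 27 passed in neither direction. Most estimates lay on the same side: 35 of 38 were below 0 (92.1%, against 51.6% of all genes), with a median change of -0.34 against -0.01 for all genes. The sizes were small, since 0 of the called factors changed 2-fold or more. Among all 18193 genes, 356 were called lower and 656 higher by 2-fold or more. Untreated and treated values overlapped for all 38 factors. The same count over all genes is not given, so no trait of the factors can be read from it. None was lower in all 12 lymphomas, beside 4.17% of all genes.

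**Figure D1:**
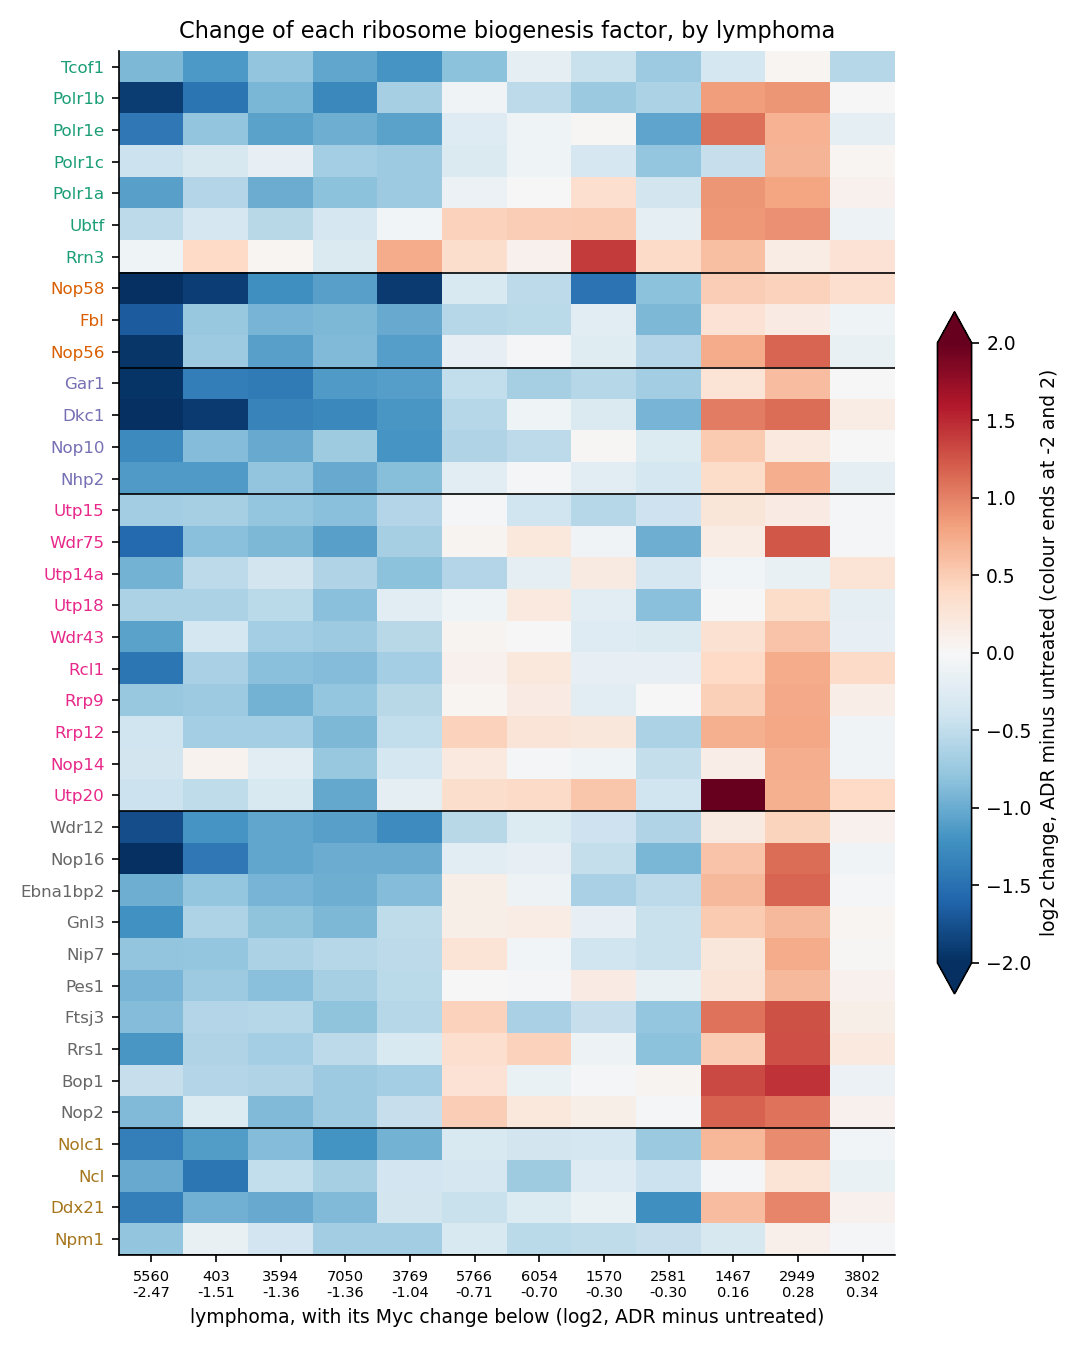
Log2 change (ADR minus untreated) of each of the 38 factors (rows, grouped and coloured by role) in each of the 12 lymphomas (columns, ordered by the change of Myc written below). Lymphomas 5560 and 7050 are blue in all 38 rows, while 1467 and 2949, near the right edge, are red in 32 and 37 rows.

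The direction differed between lymphomas. In lymphomas 5560 and 7050 all 38 factors had lower values after ADR, with mean changes of -1.15 and -0.85. In 403, 3594, 3769 and 2581 between 35 and 37 of 38 were lower. Lymphomas 1570, 6054, 5766 and 3802 were mixed, with 28, 27, 22 and 19 of 38 lower. In 1467 and 2949 the picture turned over: 32 and 37 factors were higher after ADR, by a mean of 0.50 and 0.70. These 2 lymphomas also had the lowest untreated mean of the factors, 8.74 in 2949 and 9.09 in 1467, within a group mean of 9.51 ± 0.36 (SD, n = 12). The treated mean was 9.18 ± 0.41.

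Single lymphomas moved the count of falls. Without 2949 the fit called 23 factors lower, without 1467 it called 17, and leaving out any of the other lymphomas gave 7 to 10. Rrn3 was called in 2 of the 12 fits that left out 1 lymphoma. Of the 10 falls, those of Tcof1, Fbl, Gar1, Utp15, Wdr12, Ncl and Npm1 were called in 12 of 12 such fits.

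Among RNA polymerase I and its factors, 1 of 7 fell, 1 rose and the median change was -0.30. Of all genes 12.8% were called lower and 13.7% higher, so these calls are near the share of all genes. With 3 to 10 measured factors in a role, the counts by role only describe the members. Tcof1 (treacle, a nucleolar phosphoprotein that works with UBF in ribosomal DNA transcription) ranged from 8.17 to 8.72 untreated, with a median of 8.49, and from 7.08 to 8.32 after ADR, with a median of 7.90. Of its 12 treated values 10 lay below the lowest untreated one, and only 2949 did not go down. Tcof1 was 1.60-fold lower (log2 change -0.68, SE 0.11, adjusted p = 0.000407, 11 of 12 lymphomas).

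Rrn3 (TIF-IA, the initiation factor that brings RNA polymerase I to its promoter) ranged from 7.83 to 8.68 untreated, with a median of 8.24, and from 8.11 to 9.69 after ADR, with a median of 8.57. The groups overlapped widely, and the highest treated value belonged to lymphoma 1570, whose change of 1.40 exceeded the next largest, 0.74 in 3769. Rrn3 was 1.27-fold higher (log2 change 0.34, SE 0.12, adjusted p = 0.0489, 10 of 12 lymphomas). This call sat at the threshold. Without 1570 the change was 0.24 (adjusted p = 0.0618), and over all probe sets of the array the same probe set had an adjusted p of 0.0526.

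The subunits Polr1a, Polr1b, Polr1c and Polr1e had changes of -0.22, -0.54, -0.30 and -0.42, and their adjusted p-values of 0.0601 to 0.420 missed the threshold. Of Polr1c, a subunit shared with RNA polymerase III, another probe set was called lower (-0.42, adjusted p over all probe sets 0.00273). Ubtf (UBF, which holds ribosomal DNA open for transcription) had a change of 0.09 (adjusted p = 0.698), and its dimmer second probe set gave -0.47 (adjusted p over all probe sets 0.140). No direction can be read for Ubtf.

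The box C/D snoRNP proteins, which guide methylation of ribosomal RNA, held the largest fall. Nop58, a core protein of the particle, ranged from 9.33 to 10.70 untreated, with a median of 10.35, and from 7.82 to 10.63 after ADR, with a median of 9.50. Its treated values spread over a wider range than its untreated ones, from 5560 at the bottom to 3802 at the top. Nop58 was 1.81-fold lower (log2 change -0.86, SE 0.26, adjusted p = 0.0235, 9 of 12 lymphomas); without 403 or without 3769 the call was lost, with an adjusted p of up to 0.0552. Fbl (fibrillarin, the methyltransferase) was 1.51-fold lower (log2 change -0.59, SE 0.15, adjusted p = 0.00905). Its partner Nop56 had a change of -0.42 (adjusted p = 0.192).

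In the box H/ACA snoRNP, which converts uridine to pseudouridine, Gar1 and Nop10 fell and Nhp2 and Dkc1 did not pass. Gar1 ranged from 9.41 to 10.76 untreated, with a median of 10.12, and from 8.10 to 10.41 after ADR, with a median of 9.52. It was higher after ADR in 1467 and 2949 and at its lowest in 5560. Gar1 was 1.63-fold lower (log2 change -0.71, SE 0.20, adjusted p = 0.0161, 10 of 12 lymphomas). Nop10 was 1.39-fold lower (log2 change -0.47, SE 0.15, adjusted p = 0.0345, 8 of 12 lymphomas), a call kept in 5 of 12 fits without 1 lymphoma. Dkc1 (dyskerin, the pseudouridine synthase) had nearly the same estimate as Tcof1 but a wider spread. It ranged from 8.90 to 10.99 untreated and from 7.68 to 10.72 after ADR, and changed by between -2.87 in 5560 and 1.12 in 2949, so that its mean change of -0.68 had an SE of 0.30 and missed the threshold (adjusted p = 0.118).

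**Figure D2:**
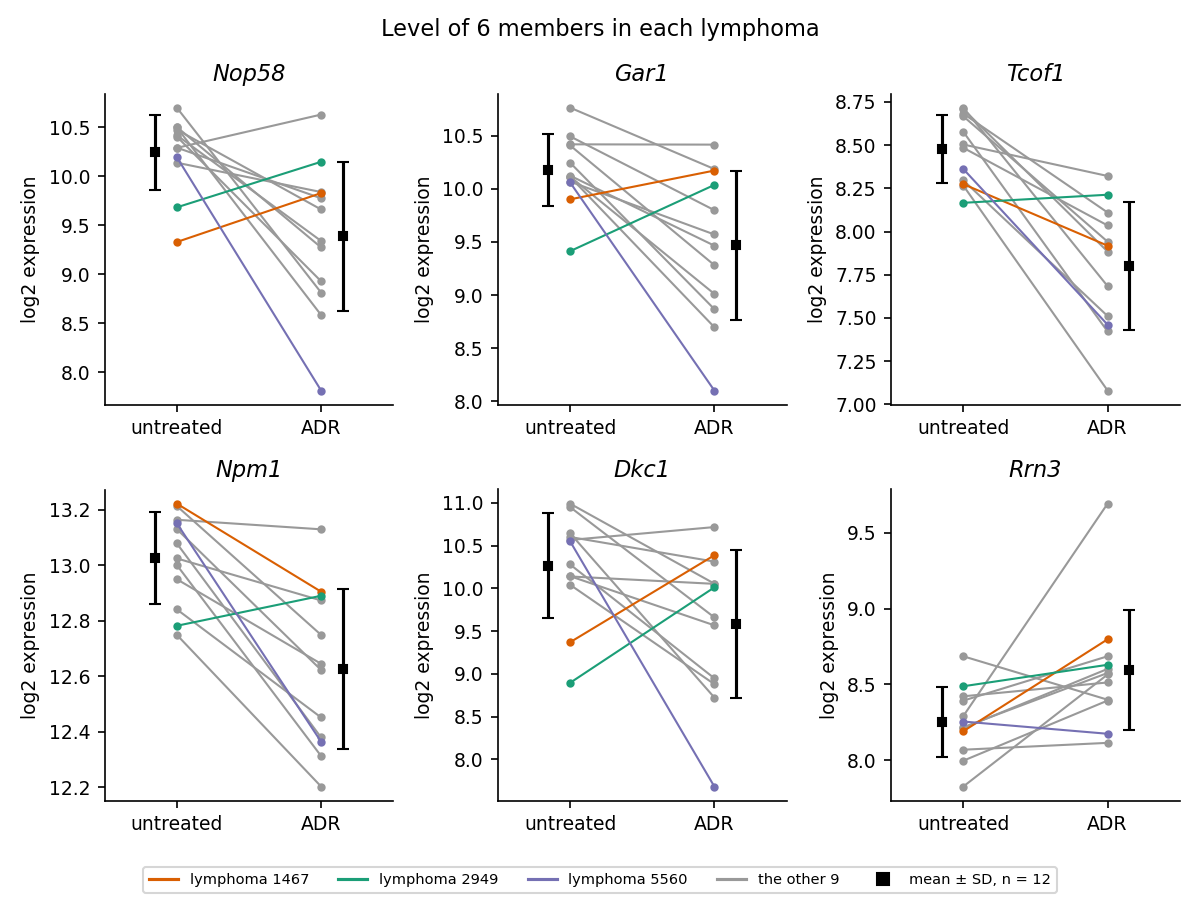
Log2 expression of 6 factors in each lymphoma, untreated (left) and after ADR (right), 1 line per lymphoma, with squares and bars for the mean ± SD of 12. Lines of Nop58, Gar1 and Dkc1 cross, with 5560 falling furthest and 1467 and 2949 rising, whereas in Tcof1 and Npm1 11 of 12 lines go down.

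Among the 10 small subunit processing factors, 2 fell and 0 rose, beside 12.8% and 13.7% of all genes, and the median change was -0.26. Utp15, of the complex that loads onto the nascent precursor, ranged from 8.51 to 9.60 untreated, with a median of 9.13, and from 8.22 to 9.51 after ADR, with a median of 8.64. The groups overlapped, and 3 treated values lay below the lowest untreated one. Utp15 was 1.30-fold lower (log2 change -0.38, SE 0.10, adjusted p = 0.0142), and Utp14a, a processome protein, was 1.27-fold lower (log2 change -0.34, SE 0.10, adjusted p = 0.0248), both in 10 of 12 lymphomas. Both calls depended on the probe set: the second probe set of Utp15, at a mean level of 7.65, gave -0.10 (adjusted p over all probe sets 0.701) and that of Utp14a, at 4.68, gave -0.13 (0.479), and with the mean of probe sets the adjusted p was 0.169 for Utp15 and 0.0559 for Utp14a. The processome proteins Utp18, Wdr43, Wdr75, Nop14, Rrp9, Rrp12 and Rcl1 had changes between -0.37 and -0.10 that did not pass. Utp18 was nearest to the threshold (-0.30, adjusted p = 0.0527). Utp20, a processome scaffold protein, had a change of 0.13 (adjusted p = 0.715), which ran from -1.02 in 7050 to 1.99 in 1467.

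With the brightest probe set of each gene, all 10 measured large subunit assembly factors had estimates below 0, with a median of -0.24. Of the 10, 1 was called lower, beside 12.8% of all genes. Wdr12 forms the PeBoW complex with Pes1 and Bop1, which is needed to mature the large subunit RNA. It ranged from 8.66 to 9.91 untreated, with a median of 9.40, and from 7.65 to 9.78 after ADR, with a median of 8.84. The groups overlapped, and 4 treated values lay below the lowest untreated one. Wdr12 was 1.54-fold lower (log2 change -0.62, SE 0.18, adjusted p = 0.0182, 9 of 12 lymphomas). The call was lost with another, dimmer probe set (-0.22, adjusted p over all probe sets 0.677) and with the mean of its probe sets (-0.28, adjusted p = 0.267). The estimates of its partners were smaller, at -0.23 for Pes1 (adjusted p = 0.256) and -0.02 for Bop1 (adjusted p = 0.957), and whether the 3 differ was not tested. A second Pes1 probe set, at a mean level of 4.92, was called in the other direction (0.66, adjusted p over all probe sets 0.0363), so the direction of Pes1 depends on the probe set. Nop16 had a change of -0.57 (adjusted p = 0.0934). The estimates of Nop2, a methyltransferase, and of Rrs1, Nip7, Ftsj3, Ebna1bp2 and Gnl3 (nucleostemin) lay between -0.33 and -0.01.

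Of the 4 nucleolar RNA-binding and scaffold proteins, Npm1 and Ncl fell, beside 12.8% of all genes called lower. Both are known as abundant proteins of the nucleolus. Npm1 (nucleophosmin, which forms the granular part of the nucleolus) ranged from 12.75 to 13.22 untreated, with a median of 13.05, and from 12.20 to 13.13 after ADR, with a median of 12.63. Of its 12 treated values 8 lay below the lowest untreated one. Npm1 was 1.32-fold lower (log2 change -0.40, SE 0.08, adjusted p = 0.00227), and Ncl (nucleolin, an RNA-binding protein) was 1.38-fold lower (log2 change -0.47, SE 0.12, adjusted p = 0.0120), both in 11 of 12 lymphomas. Nolc1, a chaperone of snoRNPs, and Ddx21, an RNA helicase, had changes of -0.48 and -0.41 (adjusted p = 0.0835 and 0.133).

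**Figure D3:**
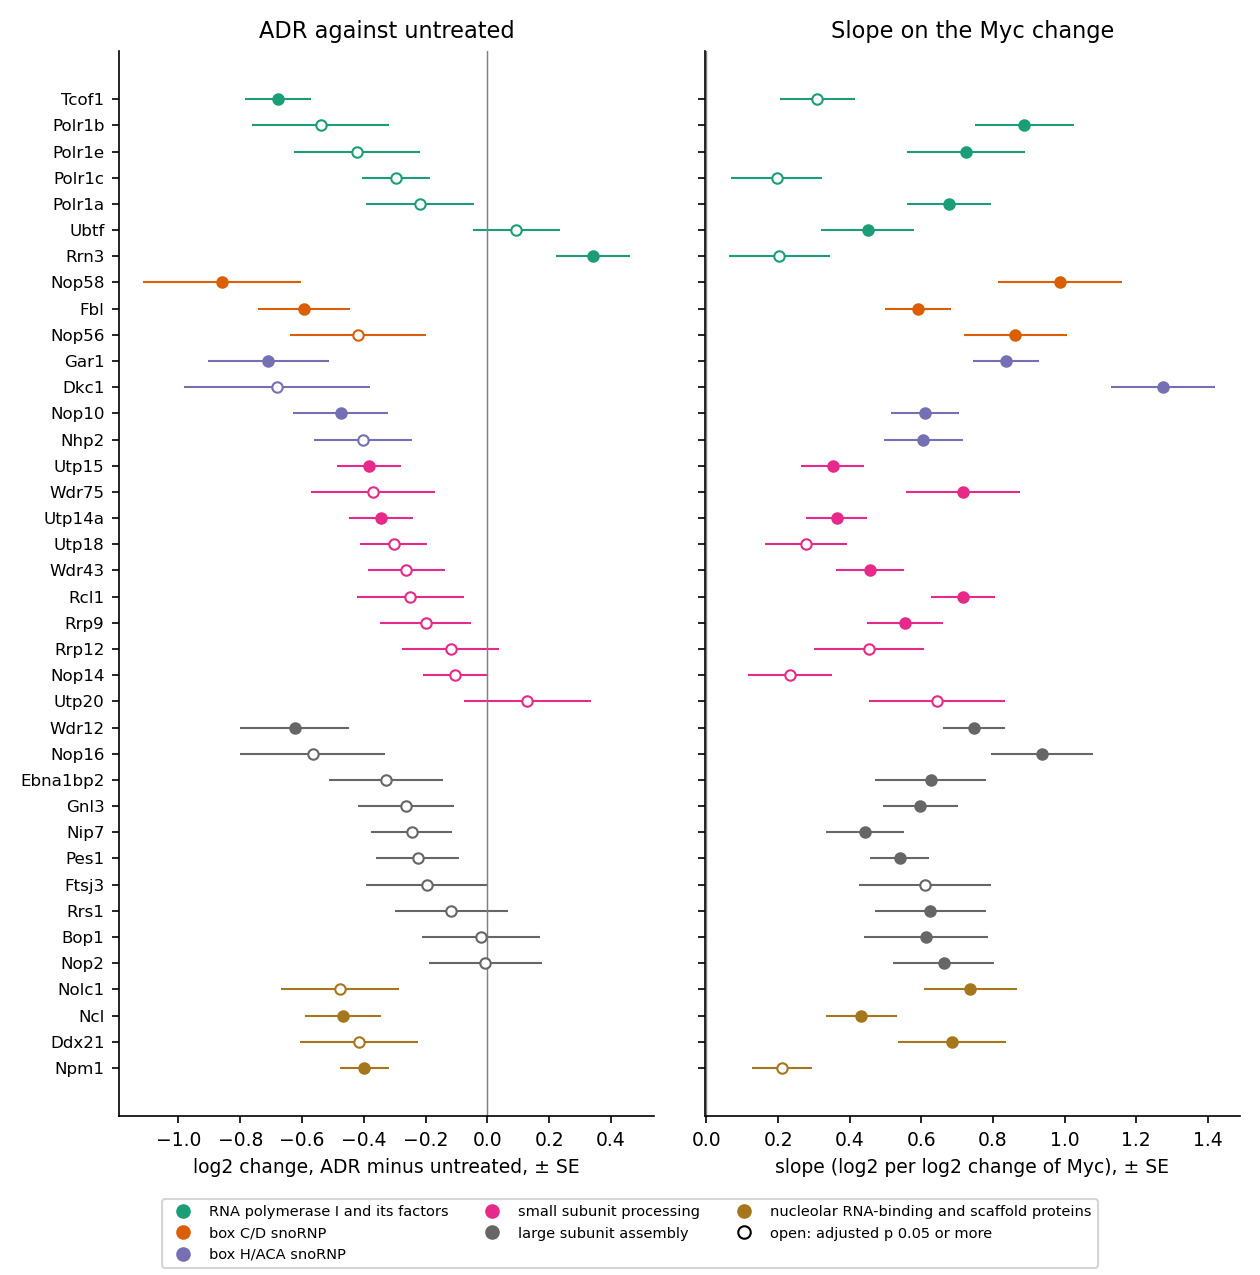
Change with ADR (left) and slope on the Myc change (right) of each factor, with standard errors, coloured by role; filled points have an adjusted p under 0.05. On the left 11 points are filled, 1 of them above 0, and on the right 29 are filled and all 38 lie above 0.

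The second question was whether a factor changed more in lymphomas whose Myc transcript changed more. Myc ranged from 10.22 to 12.03 untreated, with a median of 11.17, and from 8.72 to 11.73 after ADR, with a median of 10.23. It was lower in 9 of 12 lymphomas and higher in 1467, 2949 and 3802, the 3 in which the mean of the factors was also above its untreated value. The Myc change ran from -2.47 in 5560 to 0.34 in 3802, and whether its probe set reads the transgene or the mouse's own gene was not tested.

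Across lymphomas, the slope of each gene's change on the Myc change was fitted with limma for 18192 genes. It was positive and called for 29 of 38 factors (76.3%), beside 4.49% of all genes, and negative and called for 0, beside 4.39%. All 38 slopes were above 0, with a median of 0.61, against 0.02 over all genes. Within the roles, the slope was called for 4 of 7 RNA polymerase I factors, 3 of 3 box C/D and 4 of 4 box H/ACA proteins, 6 of 10 small subunit, 9 of 10 large subunit and 3 of 4 scaffold proteins. Leaving out 1 lymphoma gave 21 to 33 called slopes.

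Dkc1, not called for the ADR change, had the steepest slope at 1.28 log2 units per log2 unit of Myc (SE 0.15, adjusted p = 0.00109). Nop58 followed at 0.99 (SE 0.17, adjusted p = 0.00711) and Nop16 at 0.94 (SE 0.14, adjusted p = 0.00435). Wdr12 and Gar1 had slopes of 0.75 (SE 0.09) and 0.84 (SE 0.09). At the other end, Polr1c, Rrn3 and Npm1 had slopes of 0.20, 0.20 and 0.21, with adjusted p-values of 0.403, 0.438 and 0.142.

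The Myc slope was called for most factors, 29 of 38 (76.3%), whether or not they were called for ADR. A relation between the ADR calls and the slope calls was not tested. Of the 11 factors called for ADR, 8 were also called for the slope; Tcof1 (slope 0.31, adjusted p = 0.0823), Npm1 and Rrn3 were not. Another 21 were called for the slope and not for ADR, and 6 for neither, namely Polr1c, Nop14, Rrp12, Utp18, Utp20 and Ftsj3. All 7 snoRNP proteins were called for the slope.

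Averaged over the 38 factors, the mean change of a lymphoma correlated with its Myc change at Pearson r = 0.885 and Spearman rho = 0.888 over 12 lymphomas. Both measures come from the same arrays, so the values are a description. Without 5560 and 3802, the 2 lymphomas farthest from the median Myc change, r was 0.900, and leaving out each lymphoma in turn gave 0.866 to 0.921. The array files of treated samples are named "sen" (5 lymphomas) or "DOX" (7 lymphomas), a possible processing batch, and within the 7 DOX lymphomas r was 0.890. The 5 others are too few for a coefficient. A straight line had a slope of 0.59 and passed through 0.115 at a Myc change of 0.

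**Figure D4:**
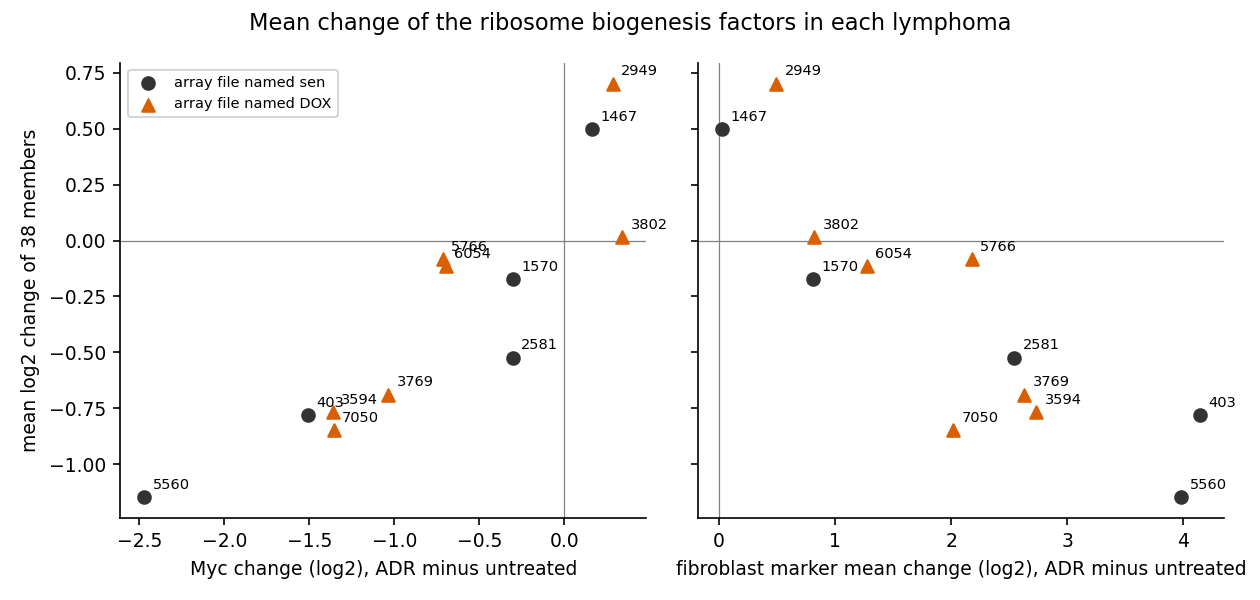
Mean log2 change of the 38 factors in each lymphoma against the log2 change of Myc (left) and of the fibroblast marker mean (right); marker shape and colour show the naming of the treated array file. The points rise with Myc (r = 0.885) and fall with the fibroblast markers (r = -0.870).

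Markers of fibroblasts, the cell type of the feeder layer, moved with the same axis. Of 28 measured fibroblast markers 23 rose after ADR and 0 fell (median change 2.07), and their mean level lay between 4.66 and 5.51 untreated and between 5.05 and 9.13 after ADR. Untreated, 16 of the 28 were at or below 4.47, the highest array median, among them Col1a1 and Col3a1, and after ADR 3 of 28 were. The rise was largest in 403 (4.15) and 5560 (3.98) and smallest in 2949 (0.49) and 1467 (0.03). In these bulk samples, fewer lymphoma cells and less RNA of a gene per cell cannot be told apart.

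The mean change of the factors correlated with the fibroblast marker change at r = -0.870 (rho = -0.811), and the Myc change did so at r = -0.865 (rho = -0.839). The slope of a factor's change on the fibroblast change was negative and called for 33 of 38 (86.8%), beside 7.07% of all genes. When the Myc and factor changes were each first regressed on the fibroblast change, their correlation was 0.534; when the factor and fibroblast changes were each regressed on the Myc change, theirs was -0.446.

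With the fibroblast mean as a covariate in the ADR fit, 0 factors were lower (3.4% of all genes were) and 3 were higher (2.36% of all genes were). The 3 were Dkc1 (0.94, adjusted p = 0.0180), Ubtf (0.72, adjusted p = 0.0267) and Utp20 (1.03, adjusted p = 0.0315). In that fit 35 of 38 estimates lay above 0. Tcof1, Npm1 and Polr1c were the 3 still below 0 (-0.23, -0.24 and -0.05; adjusted p = 0.398, 0.391 and 0.930). This covariate extrapolates to a lymphoma without a fibroblast rise, to which 1467 and 2949 lie nearest. With the fibroblast change beside the Myc change, all 38 Myc slopes remained above 0 but 0 were called by limma; 8 factors and 751 of all genes had an unadjusted p under 0.05, and 0 genes in all were called. In these 12 lymphomas the part of Myc and the part of fibroblast RNA cannot be told apart.

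Over the 12 lymphomas, macrophage and B-cell markers had weaker correlations with the factors than fibroblast markers. Of 22 macrophage markers 14 rose and 0 fell; 6 of 22 were at or below 4.47 untreated and 4 after ADR, their mean changed by between 0.27 and 2.32, and it ran with the factors at r = -0.096 over 12 lymphomas and -0.655 within the 7 DOX lymphomas. Of 11 measured B-cell markers 3 fell, Cd22, Cd79a and Ebf1, and 0 rose; 10 of 11 were above 6 untreated, and their mean changed by between -0.98 and 0.63 (r = 0.403, and -0.184 within the DOX lymphomas). The B-cell marker change ran with the Myc change at r = 0.660 (rho = 0.615) over the 12 lymphomas. The slope on the Myc change was positive and called for 4 of the 11 B-cell markers, beside 4.49% of all genes. Of 12 neutrophil markers 4 rose, and of 12 T and NK cell markers 1 rose and 1 fell. Untreated, 7 of the 12 neutrophil and 8 of the 12 T and NK cell markers were at or below 4.47. The correlation of these 2 lists with the factors was not computed. Arrays correlated with each other at 0.886 to 0.992.

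The factors also moved with one another. The median correlation of changes over the 703 pairs of factors was 0.838, against 0.006 for all pairs of genes, and 32 of 38 correlated above 0.8 with the mean of the rest. Rrn3 had the lowest such value at 0.251, followed by Polr1c (0.613), Npm1 (0.676) and Utp14a (0.678). The points share the 12 lymphomas and with them the Myc and fibroblast differences described above.

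Before treatment, the factors followed the Myc level in part. In the 12 untreated arrays, the slope on the Myc level was positive and called for 5 of 38 (13.2%, beside 1.19% of all genes) and negative and called for 0 (beside 1.37%). The positive ones were Nop16 (0.98, adjusted p = 0.0434), Rcl1 (0.91, adjusted p = 0.0313), Polr1a (0.73, adjusted p = 0.0487), Wdr43 (0.67, adjusted p = 0.0493) and Pes1 (0.61, adjusted p = 0.0447). Each of these 5 had its lowest untreated value in 2949 and its highest in 2581, as Myc did. Their slopes were not refitted without these lymphomas. The mean of the factors correlated with untreated Myc at r = 0.687 (rho = 0.441), a relation that rested on 2949, lowest in both, and 2581, highest in both: without them r was 0.269 and rho 0.030.

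Of other genes of the pathway, 38 of 118 fell and 0 rose, beside the same 12.8% and 13.7% of all genes, with a median change of -0.26. Exosc8 and Exosc3, of the RNA exosome that trims ribosomal RNA, and Lyar, a nucleolar protein, fell the most. Exosc8 went from 10.47 ± 0.42 to 9.30 ± 0.62 (log2 change -1.17, SE 0.09, adjusted p = 8.96e-06) and was lower in 12 of 12 lymphomas, 1467 and 2949 included. Lyar changed by -0.98 (adjusted p = 0.000624) and Exosc3 by -0.81 (adjusted p = 0.000778). The slope on the Myc change was positive and called for 66 of the 118.

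Transcripts for the proteins of the finished ribosome mostly had estimates near 0. Of 80 cytosolic ribosomal protein genes listed, 44 had a probe set of their own. Of these 44, 7 fell and 0 rose, beside 12.8% and 13.7% of all genes. Their median change was -0.06, and 0 had a called slope on the Myc change. Rpl14 was the largest fall (log2 change -0.83, SE 0.15, adjusted p = 0.00138, 12 of 12 lymphomas), followed by Rpl11 (-0.20, adjusted p = 0.0113) and Rpsa (-0.19, adjusted p = 0.0370). Of the 44 probe sets, 34 had an untreated level above 13 (median of all 44, 13.52), in a table whose highest value was 14.36. Rpl14, the largest fall, lay lower, at 8.67 untreated. The part of levels near the top of the scale in the small changes was not tested, nor was whether the lists differ.

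**Figure D5:**
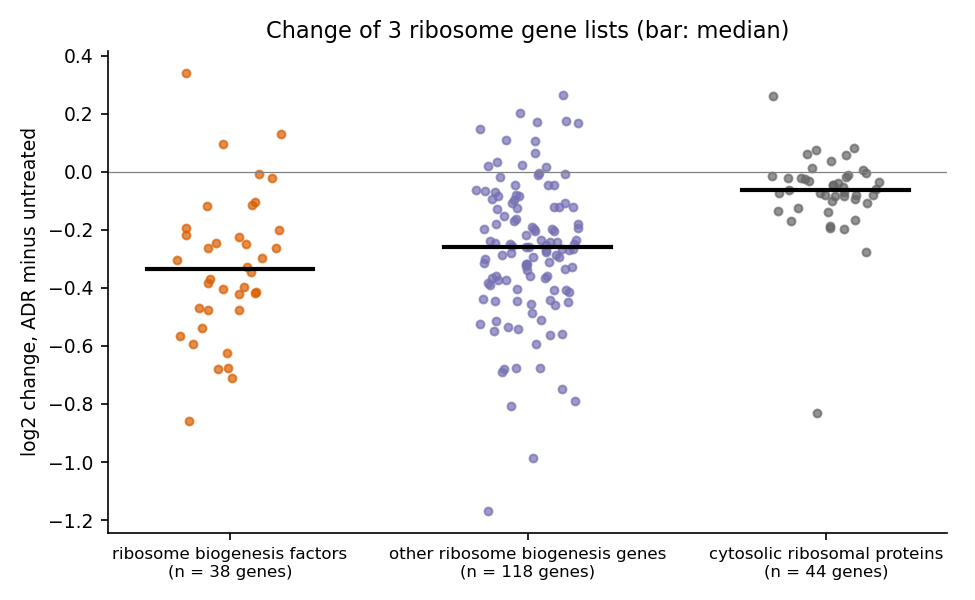
Log2 change (ADR minus untreated) of each gene in 3 lists; each point is a gene and the bar is the median. Medians are -0.34 for the 38 factors, -0.26 for 118 other ribosome biogenesis genes and -0.06 for 44 cytosolic ribosomal proteins.

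The naming of the array files was compared as well. The difference in change between the DOX and the sen lymphomas was called by limma for 0 of 18193 genes, with 1237 genes and 0 of the 38 factors at an unadjusted p under 0.05. Within the 5 sen lymphomas 1 factor, Tcof1, was called lower (2.63%, beside 2.6% of all genes) and the mean change was -0.43. Within the 7 DOX lymphomas Tcof1, Fbl and Nop10 were (7.89%, beside 8.8% of all genes), and the mean change was -0.26. Within either set the share of factors called lower was near that of all genes.

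The scaling of the arrays bears on how many factors count as lower. Centring each array on its median shifted the median change of all genes from -0.01 to -0.12 and turned the split of calls over all genes from 2329 lower and 2500 higher to 4283 lower and 1799 higher. Under it 17 factors were called lower and 0 higher, and Rrn3 had a change of 0.23 (adjusted p = 0.148). Centring shifts all genes of an array alike, and relative to the median of all genes the median change of the factors was -0.33.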

How the data were processed

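Expression was measured on Affymetrix arrays in 12 lymphomas, untreated and after ADR. The deposited table holds log2 values, 1 per probe set and array; the submitters' processing notes name RMA and Partek, with versions and settings not given in the sources used here. RMA compresses changes of weak probe sets; all 38 factors had group means above the highest array median (4.47). Precision is limited by having 12 lymphomas. Of 45101 probe sets, 34945 had 1 symbol in GEO's platform annotation of 2016, 932 several, 9160 none and 64 were controls.

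ADR was compared with untreated by limma 3.58.1 in R 4.3.3 (lmFit, eBayes), with the lymphoma as a block, since the design text states matched pairs, and Benjamini-Hochberg adjustment over 18193 genes. Within pairs, deviations from the group means correlated at 0.267 to 0.595, above 0.1 in all 12; 10 pairs correlated best with their own partner, and 2949 and 6054 more with another lymphoma (0.513 against 0.453 and 0.665 against 0.592). Slopes were fitted by limma on the 12 differences or the 12 untreated arrays. P-values of the paired fit set the mean change against the spread of the changes between lymphomas. Those of the slopes set the slope against the spread of lymphomas around the line. Figures and summaries used Python 3.11.15, pandas 2.3.3, numpy 2.4.6, scipy 1.17.1 and matplotlib 3.10.9. The fits were tested on simulated data.

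The factors and lists were chosen with earlier results of these data known. Values are given for every called factor, the largest change in each role, the 3 steepest and shallowest Myc slopes, the 3 highest levels, and 3 called genes per direction in the other lists. The alternatives covered the pairing, probe set, dim-gene filter, scaling, fibroblast and macrophage covariates, naming set and leaving out each lymphoma.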

Additional observations from a re-analysis of the deposited data

How the results depend on the processing

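Quantile normalization, the filter on dim genes and other choices of probe set moved no count of factors past 1.5 times the reported 10 lower, 1 higher and 29 called Myc slopes, but other choices of probe set changed which genes were called. With the most variable probe set Rrn3, Utp14a, Utp15, Wdr12 and Ncl lost their calls, Polr1c was called lower and Pes1 higher, and with the mean of probe sets Utp14a, Utp15 and Wdr12 lost theirs and Polr1c and Utp18 were called lower. Without the replicate block that pairs the arrays, 8 factors were lower and 0 higher (Utp15, Nop10 and Rrn3 lost their calls), and 3210 genes were called in place of 4829. Centring gave 17 lower and 0 higher. The fibroblast covariate gave 0 lower, 3 higher, a mean change of 0.40, 1048 genes called, 0 called Myc slopes and a correlation with Myc of 0.534; it turned Fbl (0.13), Nop58 (0.33), Dkc1 (0.94), Gar1 (0.27), Nop10 (0.27), Utp14a (0.092), Utp15 (0.0095), Wdr12 (0.27), Nop16 (0.62), Ncl (0.094) and Nolc1 (0.44) above 0. With macrophage markers as well, limma called 0 factors lower, 0 higher, 0 genes in all (13 factors and 2114 genes at an unadjusted p under 0.05) and 0 Myc slopes, with a mean change of 0.54 and a correlation of 0.670; Fbl (0.29), Nop58 (0.25), Dkc1 (0.98), Gar1 (0.30), Nop10 (0.28), Utp14a (0.14), Wdr12 (0.36), Nop16 (0.78), Nolc1 (0.59) and Polr1c (0.40) were above 0. Ubtf turned to -0.47 with its most variable probe set, -0.19 with the mean of its probe sets and -0.019 with centring, and Utp20 to -0.039 without 1467 (its estimates without 1 lymphoma ran up to 0.23); the cause was not tested. With fewer lymphomas, the sen set gave 1 lower, 0 higher and 811 genes called, and the DOX set 3 lower, 0 higher and 3250 genes called. Leaving out each lymphoma gave 7 to 23 lower, 0 to 1 higher, a mean change of -0.42 to -0.25, 3966 to 5165 genes called, 21 to 33 Myc slopes and a correlation of 0.866 to 0.921. Myc had 1 single-gene probe set, so another Myc probe set was not run.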

Other observations

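The largest fall of the factors and the largest fall of the cell division genes were in different lymphomas. All 19 measured mitosis genes fell after ADR (median change -2.10), and their mean was lower in 12 of 12 lymphomas. Their mean fell by 3.94 in 2949, more than in the other 11 lymphomas, and in that lymphoma 37 of 38 ribosome biogenesis factors were higher after ADR, by a mean of 0.70. In 5560, where all 38 factors were lower, the mitosis mean fell by 1.25, and in 3802, where 19 were lower, by 1.01. Over the 12 lymphomas the change of the factors and the change of the mitosis mean correlated at r = -0.549 (rho = -0.490), and without 2949 and 3802 at r = -0.481 (rho = -0.721). The proliferation marker Mki67 had its extremes in the same lymphomas as the mitosis mean, with a change of -4.28 in 2949 and -0.98 in 3802.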
